A study of Mus musculus with 2 samples.

Results

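Genes of the Wnt and beta-catenin pathway were examined in ChIP-seq peak lists from cultured mouse aortic endothelial cells. The 9 genes were chosen by name, with earlier results of these data known, among 21887 protein-coding genes of the mouse annotation: the receptors Fzd4, Lrp5 and Lrp6, the cytoplasmic transducers Axin1, Axin2, Apc and Ctnnb1, and the nuclear effectors Tcf7l2 and Lef1. For each gene, peaks were taken over its RefSeq span and 20 kb on each side, called its locus here. The cells of both libraries were wild type, isolated from mouse aorta and grown with 20% serum, heparin and endothelial growth supplement under 5% CO2, and the age, strain and number of animals are not given in the labels. Their chromatin was precipitated with 10 µg of an antibody against ETS1 or against ETS2 and sequenced with single-end reads. ETS1 and ETS2 are related transcription factors whose DNA-binding domain recognises a GGAA core. There was 1 library per antibody, so the difference between the antibodies has no replicate check and no test between them was made. No input or IgG library was analysed here, and a peak is a place where reads gathered under that antibody.

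In canonical Wnt signalling a secreted ligand joins a Frizzled receptor to the co-receptors LRP5 and LRP6. Without ligand, a complex of AXIN, APC and kinases marks beta-catenin, the product of Ctnnb1, for destruction. When the receptors recruit AXIN, beta-catenin accumulates, enters the nucleus and joins TCF and LEF factors at target genes such as Axin2, which feeds back on the pathway. In endothelium the branch of norrin, FZD4 and LRP5 is known for building the retinal vasculature, and beta-catenin signalling for forming and keeping the blood-brain barrier.

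The deposited lists held 77295 ETS1 and 63556 ETS2 peaks, from 143778022 and 134607908 tags. Peaks of the ETS1 list were 177 bp wide and those of the ETS2 list 187 bp, with 1 narrower peak in each. Every peak was taken as present, without a height, and levels of the 9 genes were not measured. The identity of the cells could therefore not be checked against marker genes. A peak's place in its list is given as a percent of the deposited order. That order passes repeatedly through the chromosomes, 198 times in the ETS1 list and 110 times in the ETS2 list, so peaks of a chromosome in the same pass stand at nearly the same place. Intervals are 95% intervals, Wilson for shares and exact Poisson for numbers of peaks. They cover counting error only, since neighbouring peaks of a library are not independent. All coordinates are mm10.

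Peaks of both antibodies lay over 8 of the 9 loci, all but that of Axin2. Each list thus marked 88.9% of the genes (56.5 to 98.0), beside 70.8% of all protein-coding genes for ETS1, 69.8% for ETS2 and 62.2% for both lists. The 9 loci were longer than that of the median gene, with a median of 141800 bp against 57160 bp. Of the 4162 protein-coding genes with a locus of 100 kb or more, 83.2% had an ETS1 peak and 83.7% an ETS2 peak, and 6 of the 9 genes belong to that class, each with a peak of both lists. The locus with neither was 1 of 9, beside 21.6% of all protein-coding genes. Per length, the median over the 9 loci was 3.90 ETS1 and 3.82 ETS2 peaks per 100 kb, against 3.15 and 2.47 over all protein-coding genes.

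**Figure D1:**
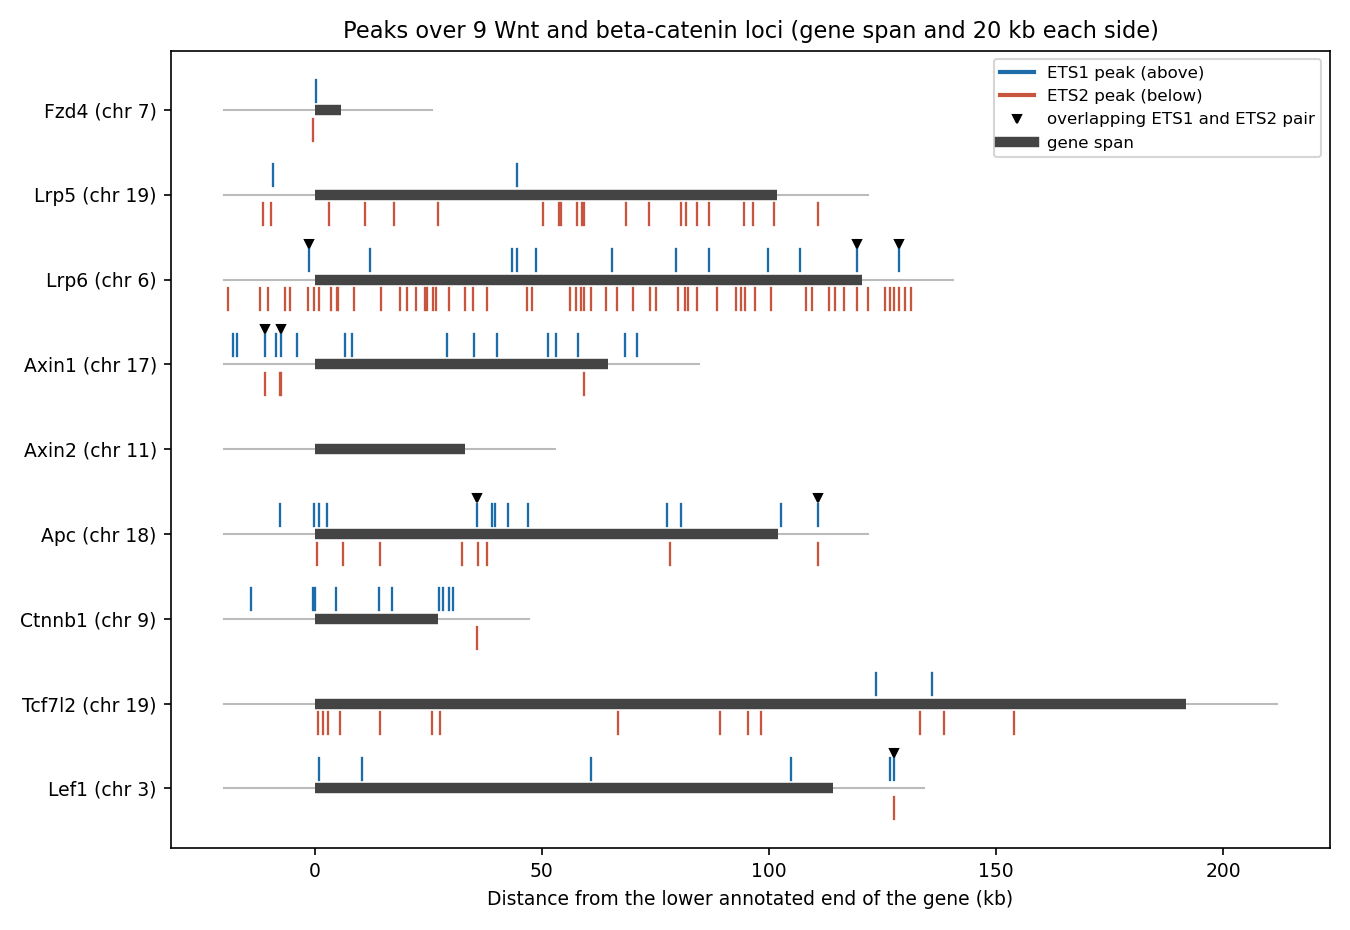
Peaks over the 9 loci, with the distance in kb from the lower annotated end of each gene on the horizontal axis and a row per gene. Blue ticks above a row are ETS1 peaks, red ticks below it ETS2 peaks, black triangles the 8 places where an ETS1 and an ETS2 peak overlap, and dark bars the gene spans. Lrp6 has 59 ETS2 ticks, Ctnnb1 has 10 ETS1 ticks and 1 ETS2 tick, and Axin2 has none.

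The DNA at some of the starts of these genes is shown first, whether or not a peak lies near. RefSeq promoter windows of GRCm38.p6, from 250 bases before to 50 bases after an annotated start, matched 5 of the 9 genes (Fzd4, Ctnnb1, Tcf7l2, Lef1 and Axin2), with 10 windows in all. Each sequence runs 5′ to 3′ on the plus strand, which is the strand of the gene, and capitals mark GGAA or its reverse complement TTCC. The first is a whole ETS1 peak at the start of Ctnnb1. The Fzd4 window is touched by an ETS2 peak over 31 bases, the first Tcf7l2 window has an ETS2 peak 561 bp away, and the Lef1 window at an internal start and the Axin2 window have no peak of either list within 14 kb. Of the other Lef1 windows, not printed, the closest lay 672 bp from an ETS1 peak, and another held 5 matches to GGAA or TTCC. The second Tcf7l2 window, 214 bp from an ETS2 peak, is not printed either.

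Ctnnb1, ETS1 peak, chr9:120933386-120933562: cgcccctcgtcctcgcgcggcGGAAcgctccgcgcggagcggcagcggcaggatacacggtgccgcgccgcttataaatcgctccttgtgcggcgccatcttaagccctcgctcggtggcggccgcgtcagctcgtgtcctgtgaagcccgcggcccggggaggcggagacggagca

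Fzd4, chr7:89404116-89404415: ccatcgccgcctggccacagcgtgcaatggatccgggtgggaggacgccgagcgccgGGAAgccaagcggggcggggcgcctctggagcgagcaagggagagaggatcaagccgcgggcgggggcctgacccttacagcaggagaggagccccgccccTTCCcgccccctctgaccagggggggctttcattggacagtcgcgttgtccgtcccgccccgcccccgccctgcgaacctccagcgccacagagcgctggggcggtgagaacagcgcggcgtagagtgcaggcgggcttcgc

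Tcf7l2, chr19:55741560-55741859: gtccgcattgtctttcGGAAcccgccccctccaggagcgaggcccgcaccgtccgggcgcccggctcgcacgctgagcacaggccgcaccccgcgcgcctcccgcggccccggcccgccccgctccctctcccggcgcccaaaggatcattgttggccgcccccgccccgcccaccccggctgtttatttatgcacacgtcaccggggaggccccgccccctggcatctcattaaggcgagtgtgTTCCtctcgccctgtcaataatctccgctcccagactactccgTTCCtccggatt

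Lef1, chr3:131156044-131156343: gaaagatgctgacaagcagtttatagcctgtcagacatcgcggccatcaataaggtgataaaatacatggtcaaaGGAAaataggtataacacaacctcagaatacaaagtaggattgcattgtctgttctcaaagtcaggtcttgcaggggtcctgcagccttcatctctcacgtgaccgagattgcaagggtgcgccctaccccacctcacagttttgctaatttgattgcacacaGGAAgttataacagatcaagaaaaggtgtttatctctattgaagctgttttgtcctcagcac

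Axin2, chr11:108920099-108920398: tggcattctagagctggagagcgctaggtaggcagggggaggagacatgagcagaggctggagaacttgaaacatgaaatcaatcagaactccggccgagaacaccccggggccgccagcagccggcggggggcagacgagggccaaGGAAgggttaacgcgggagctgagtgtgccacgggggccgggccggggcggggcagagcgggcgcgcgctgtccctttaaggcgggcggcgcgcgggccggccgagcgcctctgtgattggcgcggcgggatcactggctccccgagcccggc

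The GGAA core (or TTCC) is found in 96.0% of the 32851 promoter windows of the table, with a median of 3 matches a window, so its presence separates nothing. The Ctnnb1 peak held 1 match in its 177 bp, and the Ctnnb1 windows of 300 bp, not printed, held 4 and 2. Of the printed windows, that of Fzd4 held 2, that of Tcf7l2 3, that of Lef1 2 and that of Axin2 1. A longer ETS sequence, CCGGAAGT or its reverse complement ACTTCCGG, was in 0 of the 10 windows of these genes. It was present in 3.89% of all windows, in 13.6% of the 3748 windows touched by an ETS1 peak against 2.64% of the rest, and in 9.94% of the 4207 windows touched by an ETS2 peak against 3.0% of the rest. Another form, CAGGAAG or CTTCCTG, was in 13.3% of all windows, in 12.8% of those touched by an ETS1 peak against 13.3% of the rest, and in 11.7% of those touched by an ETS2 peak against 13.5% of the rest. It was in 1 of the 10, the internal Lef1 window, where it begins 14 bases before the start and overlaps the second capital GGAA. No ETS1 or ETS2 peak touched that window, and the nearest lay 14721 bp (ETS1) and 81430 bp (ETS2) away. A match is a string of letters and not a measured site.

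Among the receptors, Fzd4 (chromosome 7, 89404366 to 89410110), the Frizzled that binds norrin, had 1 peak in each list, and both sat at its start. The ETS1 peak (89404577 to 89404753) lay 211 bp inside the gene and stood at 6.45% of the ETS1 order. The ETS2 peak (89403960 to 89404146) ended 220 bp before the start and stood at 33.9% of its order. The peaks did not overlap each other, and both lay partly or wholly inside the neighbouring gene Tmem135, whose annotated span overlaps the first bases of Fzd4, so the peaks cannot be assigned to either gene. At 2.19 peaks per 100 kb in each list, Fzd4 exceeded 71.2% of the 2030 protein-coding genes of chromosome 7 in the ETS1 list, where the median gene had 0, and 53.9% of them in the ETS2 list. A single peak carries an interval of 0.0253 to 5.57 peaks.

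Lrp5 (chromosome 19, 3584825 to 3686585), the co-receptor that works with FZD4, was marked almost entirely by the ETS2 antibody. Its locus held 2 ETS1 peaks (0.242 to 7.22) and 22 ETS2 peaks (13.8 to 33.3), and 19 of the 22 lay inside the gene. The ETS2 density of 15.5 per 100 kb exceeded that of 91.1% of the 705 protein-coding genes of chromosome 19, whose median was 3.89, and was above the 4.55 per 100 kb measured over 1 Mb on each side. The ETS1 density of 1.41 was close to the chromosome median of 1.25. The ETS2 peaks were spread along the gene, with a median of 4631 bp between neighbouring centres. The ETS2 peak nearest to an end (3685809 to 3685995) lay 590 bp from the upper end. An ETS1 peak (3575542 to 3575718) lay 315 bp from an end of the neighbouring Ppp6r3, and the other ETS1 peak (3629339 to 3629515) lay inside Lrp5.

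Lrp6 (chromosome 6, 134446476 to 134566913), the second co-receptor, had the most peaks of the 9 loci in the ETS2 list and in both lists summed, though Axin1 and Apc had more in the ETS1 list. It had 12 in the ETS1 list (6.2 to 21.0) and 59 in the ETS2 list (44.9 to 76.1). Its ETS2 density of 36.8 per 100 kb exceeded that of 91.7% of the 1126 protein-coding genes of chromosome 6, whose median was 14.3. Over 1 Mb on each side of the locus the ETS2 list had 15.8 peaks per 100 kb. The 59 peaks followed each other at a median distance of 1873 bp between centres, 45 of them inside the gene. Their places ranged widely, with the earliest (134559630 to 134559816) at 2.33% of the order and the latest at 98.0%. The ETS1 density of 7.48 exceeded 65.0% of the chromosome's genes, and the ETS1 peaks were a median of 12607 bp apart. At the lower end of Lrp6 an ETS2 peak (134446185 to 134446371) lay 105 bp outside the gene. At the upper end an ETS1 peak (134565789 to 134565965) lay 948 bp inside it. Lrp6 alone gave 53.6% of the ETS2 peaks of the 9 loci.

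Of the transducers, Axin1 (chromosome 17, 26131217 to 26195811), the scaffold of the destruction complex, had 16 ETS1 peaks (9.15 to 26.0) and 4 ETS2 peaks (1.09 to 10.2). With 15.3 ETS1 peaks per 100 kb it was the densest of the 9 in that list. It exceeded 71.9% of the 1059 protein-coding genes of chromosome 17, and the 1 Mb on each side had 15.2 per 100 kb, close to the density of Axin1 itself. The locus lies among closely spaced genes, and 8 of the 16 ETS1 and 3 of the 4 ETS2 peaks were in the flanks rather than in Axin1. Neither list had a peak within 1 kb of an end of Axin1. The nearest lay 3600 bp (ETS1, 26199411 to 26199587) and 5291 bp (ETS2, 26190334 to 26190520) from an end, the former inside the neighbouring Arhgdig.

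Axin2 (chromosome 11, 108917828 to 108950783), the paralogue of Axin1 that beta-catenin itself induces, had no peak of either list over its 72956 bp locus. A count of 0 peaks allows up to 3.69 peaks, or 5.06 per 100 kb. The median protein-coding gene of chromosome 11 had 9.38 ETS1 and 4.37 ETS2 peaks per 100 kb, so the upper limit was below the ETS1 median and above the ETS2 median. Only 98 of the 1609 protein-coding genes of that chromosome (6.09%) had neither peak, and 14 of the 408 whose locus was at least as long (3.43%). The surroundings were not empty, with 6.70 ETS1 and 3.20 ETS2 peaks per 100 kb over 1 Mb on each side. The nearest ETS1 peak (108885359 to 108885535) lay 32293 bp from the gene and the nearest ETS2 peak (109011740 to 109011926) 60957 bp from it.

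Apc (chromosome 18, 34220297 to 34322190), the tumour suppressor that holds the destruction complex together, had 13 ETS1 peaks (6.92 to 22.2) and 8 ETS2 peaks (3.45 to 15.8). Both lists marked its lower end. ETS1 peaks lay 152 bp outside the gene (34219969 to 34220145) and 726 bp inside it (34221023 to 34221199), and an ETS2 peak (34220589 to 34220775) lay between them, 292 bp inside. None of these overlapped a peak of the other list. A transcribed pseudogene, Gm10548, spans this end. At the upper end an ETS1 peak (34322743 to 34322919) lay 553 bp outside. The densities, 9.16 ETS1 and 5.64 ETS2 peaks per 100 kb, exceeded those of 64.2% and 76.1% of the 511 protein-coding genes of chromosome 18.

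Ctnnb1 (chromosome 9, 120933400 to 120960507), which encodes beta-catenin, was marked by the ETS1 antibody at both ends. The ETS1 list had 10 peaks (4.80 to 18.4) over the locus, 4 of them in the gene and 6 in the flanks, and the ETS2 list 1 (0.0253 to 5.57). The ETS1 peak whose sequence is printed above (120933386 to 120933562) covered the annotated start, and a second (120932968 to 120933144) lay 256 bp before it. Both stood at 33.0% of the ETS1 order. Beyond the other end, ETS1 peaks lay 209 bp (120960716 to 120960892) and 950 bp (120961457 to 120961633) outside the gene, both at 9.9% of the order. The single ETS2 peak (120968911 to 120969097) lay 8404 bp outside Ctnnb1 and inside the neighbouring kinase gene Ulk4. With 14.9 ETS1 peaks per 100 kb, Ctnnb1 exceeded 85.3% of the 1201 protein-coding genes of chromosome 9, whose median was 5.48, and the 8.65 per 100 kb of its surroundings lay inside its interval (7.15 to 27.4). Its ETS2 density of 1.49 exceeded 34.4% of them.

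The nuclear effectors Tcf7l2 and Lef1 encode DNA-binding partners of beta-catenin, and they differed in which antibody marked them. Tcf7l2 (chromosome 19, 55741797 to 55933659) had 2 ETS1 peaks (0.242 to 7.22) and 14 ETS2 peaks (7.65 to 23.5), all inside the gene. ETS2 peaks lay near each of its 2 tabulated starts, 610 bp after the first (55742420 to 55742606) and 263 bp after the internal start (55895584 to 55895770). The first start was followed by further ETS2 peaks 1779, 2870 and 5411 bp away. No ETS1 peak came within 17 kb of either start. Its 6.04 ETS2 peaks per 100 kb exceeded 63.0% of the genes of chromosome 19, and its 0.863 ETS1 peaks 45.8%.

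Lef1 (chromosome 3, 131110297 to 131224357) had 6 ETS1 peaks (2.20 to 13.1) and 1 ETS2 peak (0.0253 to 5.57). The ETS1 peak nearest to a start (131111044 to 131111220) lay 721 bp after it, and 4 of the 6 were inside the gene, the earliest in the order (131171064 to 131171240) at 9.50%. The single ETS2 peak lay 13416 bp beyond the gene, inside Hadh, so the span of Lef1 itself had 0 ETS2 peaks. Its densities of 3.89 ETS1 and 0.649 ETS2 peaks per 100 kb exceeded 36.7% and 24.3% of the 983 protein-coding genes of chromosome 3.

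In order of density, the ETS1 list ran from Axin1 (15.3 per 100 kb) and Ctnnb1 (14.9) through Apc (9.16), Lrp6 (7.48), Lef1 (3.89), Fzd4 (2.19), Lrp5 (1.41) and Tcf7l2 (0.863) to Axin2 (0). Neighbours in that order had overlapping intervals throughout. The ETS2 list ran from Lrp6 (36.8) and Lrp5 (15.5) through Tcf7l2 (6.04), Apc (5.64), Axin1 (3.82), Fzd4 (2.19), Ctnnb1 (1.49) and Lef1 (0.649) to Axin2 (0). There the interval of Lrp6 (28.0 to 47.4) lay above that of Lrp5 (9.73 to 23.5), and the other neighbours overlapped. In each list 6 of the 9 genes were denser than the median gene of their chromosome. For ETS1 the exceptions were Tcf7l2, Lef1 and Axin2, and for ETS2 Ctnnb1, Lef1 and Axin2.

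**Figure D2:**
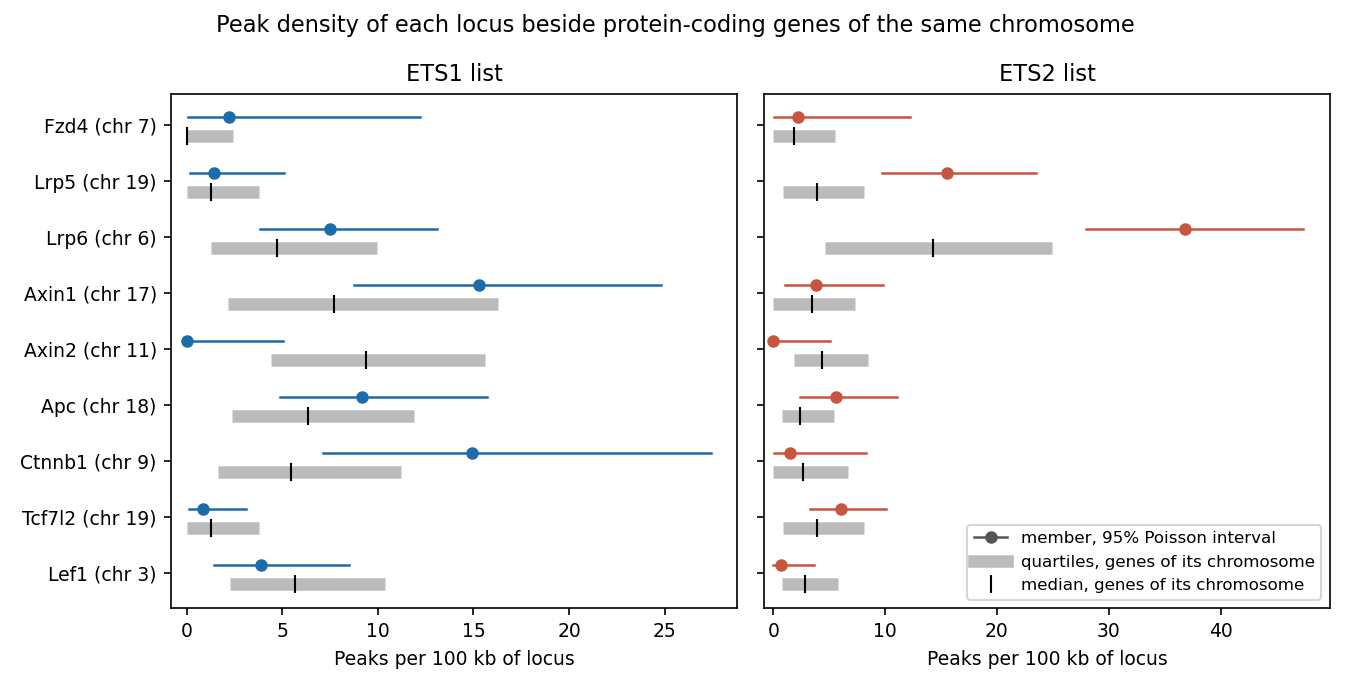
Peaks per 100 kb of locus on the horizontal axis for each gene, ETS1 list on the left and ETS2 list on the right, with different scales. Points are the 9 genes with exact Poisson 95% intervals, and grey bars and black ticks are the quartiles and the median of protein-coding genes of the same chromosome. Lrp5, Lrp6 and Apc lie above the upper quartile in the ETS2 list and Ctnnb1 in the ETS1 list, and Axin2 lies at 0 in both.

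The list with more peaks at a locus was set beside the list with more peaks over its chromosome. The ETS2 list outnumbered the ETS1 list at Lrp5, Lrp6 and Tcf7l2, and the ETS1 list outnumbered it at Axin1, Apc, Ctnnb1 and Lef1. In 7 of these 7 loci the same list also had more peaks over the whole chromosome, and Fzd4 had equal numbers. The share of all protein-coding genes with such a match is not given here, so the count cannot be read as a trait of these genes. At Lrp5 the ETS2 list gave 91.7% of the 24 peaks of both lists (74.2 to 97.7), and over all of chromosome 19 it gave 74.7%. At Ctnnb1 it gave 9.09% of 11 peaks (1.62 to 37.7), and over chromosome 9 36.9%. Lrp6 stood at 83.1% (72.7 to 90.1) with 75.0% for chromosome 6, and Apc at 38.1% (20.8 to 59.1) with 32.1% for chromosome 18. The share of the whole chromosome lay inside the interval of the locus at each of the 8 loci with peaks, close to its edge at Lrp5, Lrp6 and Ctnnb1. Loci with few peaks had intervals too wide to show a difference, 9.45 to 90.5 at Fzd4 with 2 peaks and 2.57 to 51.3 at Lef1 with 7. Set beside the 1 Mb on each side instead, the share of the surroundings lay inside the interval at 7 of the 8. The exception was Lrp5, whose surroundings had 2.05 ETS1 and 4.55 ETS2 peaks per 100 kb, an ETS2 share of 68.9%, below the interval of the locus.

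**Figure D3:**
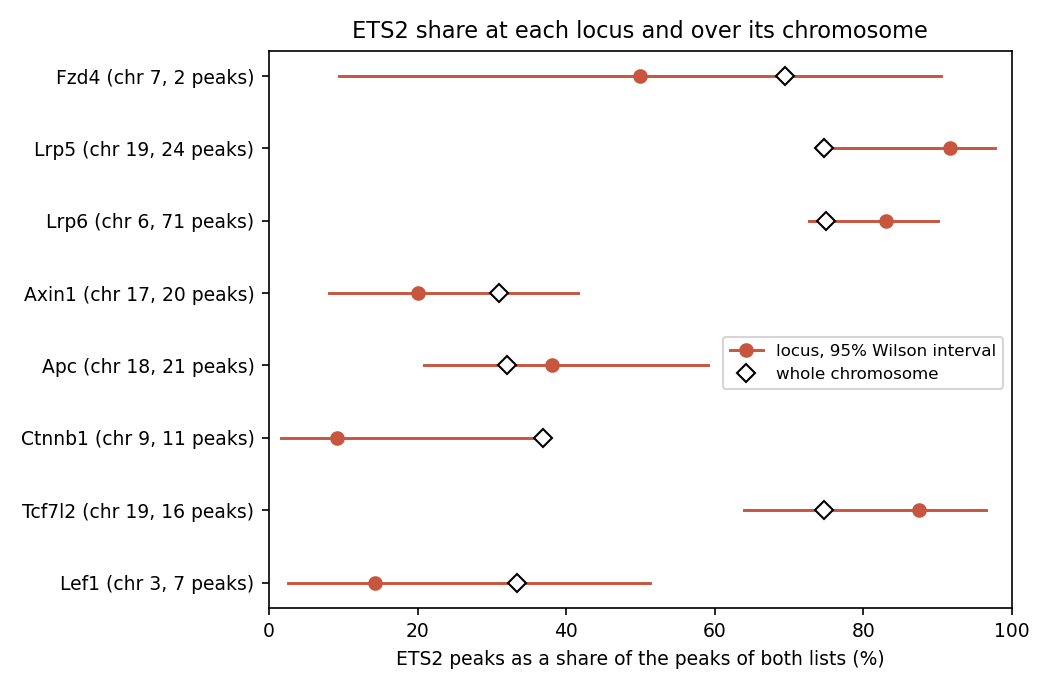
The share of ETS2 peaks among the peaks of both lists, in percent, for the 8 loci with peaks. Red points are the loci with Wilson 95% intervals and open diamonds the whole chromosomes. Each diamond lies inside its interval, and the loci on chromosomes 6 and 19 lie above 80% while Axin1, Ctnnb1 and Lef1 lie at 20.0% or below.

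A start here is an annotated start, or either gene end where the table gave none. By that rule 3 genes were marked by both lists (Fzd4, Lrp6 and Apc) and 2 by neither (Axin1 and Axin2). The other 4 were marked by 1 list only (Ctnnb1 and Lef1 by ETS1, Lrp5 and Tcf7l2 by ETS2). The last group is 44.4% of the 9 (18.9 to 73.3), beside 21.2% of all protein-coding genes marked by 1 list only. A peak within 1 kb of an annotated start, or of either end where the table gave no start, was found for 5 of 9 genes in each list. That is 55.6% (26.7 to 81.1), an interval that includes the 39.5% of all protein-coding genes for ETS1 and the 40.7% for ETS2. For Lrp5, Lrp6, Axin1 and Apc the promoter table used here gave no start, and a peak at the far end of the gene also counts for them. At Lrp6 the lists met the rule at opposite ends, ETS1 948 bp from the upper end and ETS2 105 bp from the lower. Neither end had peaks of both lists within 1 kb. With either end as its start, Lrp6 would therefore join the group marked by 1 list only. The count of 5 would then be lower in 1 of the lists. Within 500 bp the ETS1 count was 3.

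Overlapping pairs of an ETS1 and an ETS2 peak were found over 4 of the 9 loci (44.4%, 18.9 to 73.3), Lrp6, Axin1, Apc and Lef1, beside 41.4% of all protein-coding genes. There were 8 pairs, and 2 of them lay inside a gene of the 9. In Lrp6 the ETS1 peak 948 bp inside the upper end overlapped an ETS2 peak (134565709 to 134565895) by 107 bp. In Apc a pair 35 kb into the gene (34255939 to 34256115 and 34256049 to 34256235) overlapped by 67 bp, and its peaks stood late, at 71.6% and 99.3% of the orders. Another 2 pairs flanked Lrp6, 1290 bp below (134445010 to 134445186 and 134444988 to 134445174) and 8085 bp above the gene (134574998 to 134575174 and 134574892 to 134575078).

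The other 4 pairs lay inside neighbouring genes. The pair earliest in both orders, at 2.96% and 1.45%, was in the Apc locus (34331000 to 34331176 and 34330993 to 34331179) and covered an end of Srp19, which encodes a protein of the signal recognition particle. In the Axin1 locus a pair (26123701 to 26123877 and 26123753 to 26123939) lay 198 bp from the start of Mrpl28, a gene of the mitochondrial ribosome. A second pair there (26120084 to 26120260 and 26120138 to 26120324) lay inside Pgap6. The Lef1 pair (131237770 to 131237946 and 131237773 to 131237959), which overlapped by 174 bp, lay inside Hadh, an enzyme gene of fatty acid oxidation.

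Of the 62 ETS1 peaks over the 9 loci, 8 were shared (12.9%, 6.69 to 23.4), beside 15.9% of all ETS1 peaks. Of the 110 ETS2 peaks, 8 were shared (7.27%, 3.73 to 13.7), beside 19.4% of all ETS2 peaks. Without Lrp6 the ETS2 share was 9.80%, 5 of 51 peaks. By locus, 3 of 59 ETS2 peaks were shared at Lrp6, 0 of 22 at Lrp5 and 0 of 14 at Tcf7l2. These lie on chromosomes 6 and 19, where the ETS2 list outnumbered the ETS1 list. Elsewhere 2 of 4 were shared at Axin1, 2 of 8 at Apc, 1 of 1 at Lef1 and 0 of 1 at Ctnnb1 and at Fzd4. Those loci had at most 8 ETS2 peaks each, too few to say whether their shares differed. All their shared ETS2 peaks but 1 in Apc lay inside neighbouring genes. The relation of the low ETS2 share to the chromosome was not tested, and the share over all peaks of the same chromosomes is not given here. Inside the gene spans alone 2 of 39 ETS1 peaks (5.13%) and 2 of 86 ETS2 peaks (2.33%) were shared. Inside the spans of all protein-coding genes, 17.3% of ETS1 and 20.8% of ETS2 peaks were shared.

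Other genes of the pathway were counted in the same way, and a peak over the loci of several genes counted for each of them. Of 103 Wnt genes in 6 lists, 86.4% had an ETS1 peak over the locus, 93.2% an ETS2 peak and 56.3% an overlapping pair, beside 70.8%, 69.8% and 41.4% of all protein-coding genes. Their median locus was 70981 bp, longer than the 57160 bp of all protein-coding genes. At starts the shares were 54.4% (44.8 to 63.7) for ETS1 and 53.4% (43.8 to 62.7) for ETS2, beside 39.5% and 40.7%. Genes with neither peak included Fzd10 on chromosome 5 and, on the X chromosome, whose median protein-coding gene had 0 peaks in each list, Ndp, which encodes norrin, Porcn, which acylates Wnt ligands, and Amer1, a partner of APC.

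By role, the 15 other nuclear effectors had an ETS1 peak at the start of 12 (80.0%, 54.8 to 93.0), an ETS2 peak at the start of 8 (53.3%) and a pair over the locus of 12. Among all protein-coding genes 39.5% had an ETS1 and 40.7% an ETS2 peak at a start, and 41.4% a pair. The median locus of these 15 genes was 99892 bp, the longest of the 6 lists, and 48.9% of all protein-coding genes with a locus of 100 kb or more had a pair. Their median was 11.1 ETS1 and 4.0 ETS2 peaks per 100 kb. The beta-catenin co-activator gene Bcl9l had 24 ETS1 and 17 ETS2 peaks, and the Groucho family genes Tle2 (20 and 12) and Tle5 (13 and 14) were also dense. Tle2 and Tle5 are both on chromosome 10, and any peak over both loci is counted for each, so they may not be separate cases. Their relatives Tle1 (1 and 1), Tle3 (7 and 6) and Tle4 (1 and 2) had fewer. Tcf7l1, the repressive relative of Tcf7l2, had 44 ETS1 and 132 ETS2 peaks, 65.1 ETS2 peaks per 100 kb, on chromosome 6 like Lrp6. The remaining relative, Tcf7 on chromosome 11, had 10 and 7. Within the TCF and LEF family the numbers thus ran from 1 ETS2 peak at Lef1 to 132 at Tcf7l1. Their chromosomes also differed, the median gene having 2.82 ETS2 peaks per 100 kb on chromosome 3 (Lef1) and 14.3 on chromosome 6 (Tcf7l1).

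Of 15 other Frizzled receptors and co-receptors, 9 (60.0%) had an ETS1 and 10 (66.7%) an ETS2 peak at a start. A pair lay over the locus of 10 (66.7%, 41.7 to 84.8). Among all protein-coding genes these shares were 39.5%, 40.7% and 41.4%. Fzd5 (6 ETS1 and 5 ETS2 peaks) and Fzd8 (5 and 4) were densest in the ETS1 list and Fzd7 (1 and 6) and Fzd9 (2 and 5) in the ETS2 list. Of 18 other cytoplasmic transducers, 9 had an ETS1 and 9 an ETS2 peak at a start, and 6 had both. Among these transducers Dvl2, which relays the receptor signal, had 14 ETS1 and 7 ETS2 peaks, Dvl3 had 10 and 9, and Apc2, the relative of Apc, had 17 and 12.

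Of 20 ligands, 7 (35.0%) had an ETS1 and 12 (60.0%) an ETS2 peak at a start, beside 39.5% and 40.7% of all protein-coding genes. Wnt1 (9 ETS1 and 4 ETS2 peaks) and Wnt9a (10 and 6) were densest in the ETS1 list, and Wnt16 (3 and 13) and Wnt5b (16 and 35), both on chromosome 6, in the ETS2 list. Of 25 secreted and surface modulators, 14 (56.0%) had an ETS1 and 12 (48.0%) an ETS2 peak at a start. Notum, a Wnt-inactivating enzyme, was dense in both (13 and 9), Kremen2 had 6 and 2, and Dkk3 on chromosome 7 had 2 and 9. Of 10 target genes of Wnt signalling in brain and retinal endothelium, 5 and 4 had such a peak. Plvap, a marker of fenestrated vessels, had 17 and 8, the tight junction gene Cldn5 7 and 2, and Ccnd1 4 and 12. Differences between these lists of genes were not tested.

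**Figure D4:**
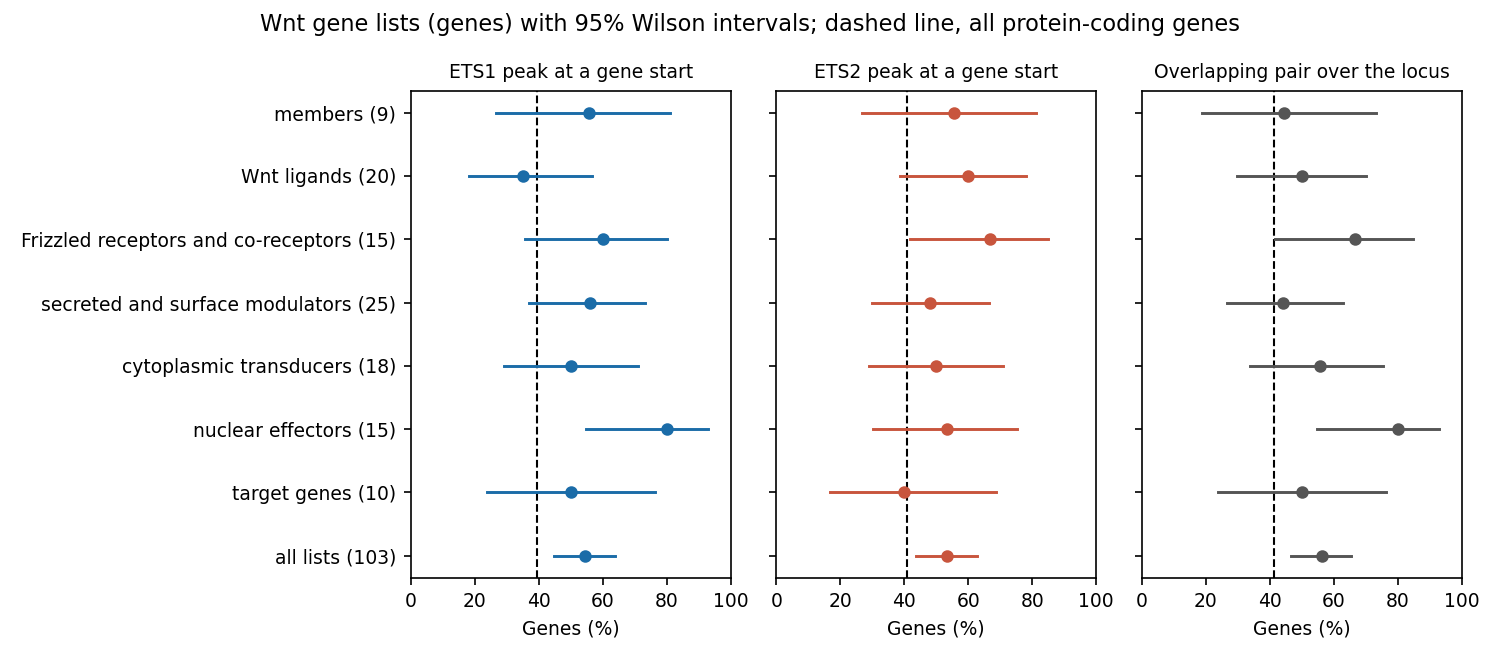
The percent of genes with an ETS1 peak at a start (left), an ETS2 peak at a start (middle) and an overlapping pair over the locus (right), for the 9 genes, 6 lists of other Wnt genes and all 103 of these together, with numbers of genes in brackets. Points carry Wilson 95% intervals and dashed lines stand at all protein-coding genes, 39.5%, 40.7% and 41.4%. The 9 genes span the dashed line in each panel, and the nuclear effectors lie at 80.0% on the left and on the right.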

How the data were processed

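ChIP-seq peaks of 2 libraries, 1 per antibody, grouped by sample title, were analysed. The submitters' processing notes name CASAVA 1.8, Bowtie2 and HOMER, and the builds mm9 and mm10. Per the file headers, HOMER called peaks separately in each library from tag directories named for mm10, with no control directory in the command, fold, local and clonal filters set to 0, a false discovery rate of 0.01 and a threshold of 30 tags, so places with more reads pass more often. A constant score is deposited for all peaks and was not used. Only positions and the deposited order were.

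Here, peaks on chromosomes 1 to 19, X and Y were counted by overlap of at least 1 bp (Python 3.11.15, pandas, scipy) with RefSeq spans of GRCm38.p6. Starts came from a RefSeq promoter table for 17492 of 21887 protein-coding genes, and from both gene ends otherwise. Counting was checked on simulated peaks with known answers. The 9 genes, the 6 Wnt lists and the rules were chosen with earlier results of these data known. All 9 genes are named; of each list, up to 2 genes with most peaks per 100 kb in each peak list and up to 2 with none, except that 1 gene with none is not reported here. For each gene of the 9, the overlapping pairs and the peak of each list nearest to a start or end are printed. Tcf7, Tle1, Tle3, Tle4 and the further peaks given with coordinates were chosen after their values were seen. Genes silent in endothelium are in the background, since expression was not measured. Alternatives changed the flank, the overlap, the start window and the part of the order used.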

Additional observations from a re-analysis of the deposited data

How the results depend on the processing

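Of 54 recomputed summary values, 43 stayed within 1.5 times the reported count, or inside the interval of a share, and 11 did not. With gene spans alone, 39 ETS1 peaks remained in place of 62, 5 genes in place of 8 had an ETS2 peak, 5 in place of 8 had both, 2 in place of 4 had an overlapping pair, and the shared percentages were 5.13 (ETS1) and 2.33 (ETS2). With flanks of 50 kb there were 99 ETS1 peaks, and Axin2 was among the 9 genes with an ETS1 peak. The first 50% of each deposited list left 35 ETS1 and 52 ETS2 peaks, with 5 genes in place of 8 marked by both. Within 500 bp of a start the ETS1 list marked 3 genes in place of 5. Of 90 values for single genes, 18 moved; with spans alone Ctnnb1 had 4 ETS1 and 0 ETS2 peaks, Axin1 8 and 1, and Fzd4 and Lef1 0 ETS2 peaks, and with 50 kb flanks Axin1 had 36 ETS1 peaks. The first 50% of the lists gave 10 of the 18. Smaller flanks, fewer peaks and narrower windows lower such counts by construction. Flanks of 10 kb gave 56 ETS1 and 103 ETS2 peaks, with 8 and 7 genes marked. No paired analysis was possible because each antibody has 1 library and no test was made. Depth per peak was not used.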
